A study of Mus musculus with 14 samples.

Results

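The genes described are 7 regulators and members of the Ras and Rap family of small GTPases, measured in the striatum of R6/2 and wild-type mice. They are the GTPases Rasd2, Rasd1, Rap1a and Rap1b and the exchange factors Rasgrp2, Rasgrp1 and Rasgrf1. All probe sets that the platform assigns to these symbols were taken, so they are 7 of 12393 genes and 17 of the 22626 non-control probe sets on the array. The group was put together around Rasd2 and Rasgrp2 because both were low in R6/2 striatum. Differences between the genotypes are therefore given for its genes as a description. Counts of calls among the 7 genes are given with the share or number called among all probe sets, except where stated, and nothing is read from them. R6/2 mice are a transgenic model of Huntington disease in which the human huntingtin promoter drives a fragment of the human gene with a long CAG repeat throughout the body. The samples on the 14 arrays, 7 R6/2 and 7 wild-type, were on a CBAxC57BL/6 background, were 6 weeks old and had been given normal saline between 30 and 60 minutes before death as the controls of drug studies. Sample titles that start with M.C (4 arrays of each genotype) and with Mith (3 of each) are treated as separate cohorts. The labels do not say whether each array is 1 animal, so every p-value measures the spread between arrays, and the small number of arrays limits the precision. Wild-type replicate 5, a Mith array, stood apart in Rasgrp2 and in markers of striatal projection neurons. Mith differences of Rasd2, of the exchange factors, of Rasd1 and of Rap1b are also given without it, a step chosen after its values were seen.

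Small GTPases of the Ras and Rap family are molecular switches that signal while bound to GTP. Exchange factors load them with GTP and GTPase activating proteins turn them off. Rasd2, also called Rhes, is an atypical member that is strongly enriched in striatal neurons and is known to bind mutant huntingtin. Its paralog Rasd1, or Dexras1, was found as a gene induced by the glucocorticoid dexamethasone. Rasgrp2, or CalDAG-GEFI, is the calcium and diacylglycerol sensor that activates Rap in striatal projection neurons and in platelets, and Rasgrp1, or CalDAG-GEFII, is the related activator of Ras. Rasgrf1 couples calcium and calmodulin to Ras in neurons. Rap1a and Rap1b encode nearly identical Rap1 proteins.

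The start-site sequences of Rasd2 and Rasgrp2 are shown because these genes were low together. RefSeq windows on GRCm38.p6 (250 bases before to 50 after a transcript start) were at hand for 5 of the 7 genes, with 2 starts for Rasgrp2. Rasd1 and Rap1a had no window. Each is written 5′ to 3′ on the gene's strand, and capitals mark GGGCGG or its complement, the GC box. The coordinates are chr8:75213694-75213993 (plus strand) for Rasd2, chr19:6399625-6399924 (plus strand) for the upstream start of Rasgrp2 and chr19:6401455-6401754 (plus strand) for its downstream start.
Rasd2: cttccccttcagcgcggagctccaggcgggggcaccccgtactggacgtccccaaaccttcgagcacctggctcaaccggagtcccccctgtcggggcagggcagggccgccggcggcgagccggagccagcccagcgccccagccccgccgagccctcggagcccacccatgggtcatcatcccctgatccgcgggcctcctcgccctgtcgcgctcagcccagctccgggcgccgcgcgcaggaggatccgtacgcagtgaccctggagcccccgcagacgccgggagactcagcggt
Rasgrp2 upstream: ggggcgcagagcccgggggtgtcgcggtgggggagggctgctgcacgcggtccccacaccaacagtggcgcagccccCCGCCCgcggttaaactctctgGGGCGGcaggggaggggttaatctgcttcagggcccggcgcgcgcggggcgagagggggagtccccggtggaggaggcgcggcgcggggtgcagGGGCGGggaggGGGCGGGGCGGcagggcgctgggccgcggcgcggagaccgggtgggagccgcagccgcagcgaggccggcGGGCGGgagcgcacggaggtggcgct
Rasgrp2 downstream: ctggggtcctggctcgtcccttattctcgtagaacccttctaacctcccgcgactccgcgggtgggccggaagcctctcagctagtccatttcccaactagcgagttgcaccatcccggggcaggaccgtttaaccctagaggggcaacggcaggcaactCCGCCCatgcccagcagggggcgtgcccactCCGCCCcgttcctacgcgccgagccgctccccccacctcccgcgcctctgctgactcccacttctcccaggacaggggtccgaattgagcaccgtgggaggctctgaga
GC content was 74.7% in the Rasd2 window and 80.0% and 66.0% in the Rasgrp2 windows, and the median of all 32851 windows was 52.7%. The GC box was matched 6 times in the upstream Rasgrp2 window, with 1 overlapping pair, and 2 times in the downstream window, and 35.7% of all windows hold it at least once. None of the letters searched on both strands occurred in the Rasd2 window. These were GGGCGG, TGACGTCA and the shorter TGACG (the cyclic AMP response element), GCGTGGGCG and GCGGGGGCG (Egr sites), CACGTG (the E-box), AGAACA (one arm of the glucocorticoid receptor site) and AGGTCA (one arm of nuclear receptor sites). Among the other windows, that of Rap1b held TGACGTCA, which 1.79% of all windows hold. A match here is a description of letters only.

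Rasd2 was lower in R6/2 in both cohorts and by a similar amount. Its brighter probe set, 1427344_s_at, read 11.48, 11.05, 11.40 and 11.67 (log2 signal) on the wild-type arrays of M.C and 10.27, 10.67, 10.70 and 10.44 on the R6/2 arrays. In Mith it read 10.77, 11.33 and 11.46 in wild-type and 10.54, 10.59 and 10.20 in R6/2. The genotypes did not overlap over both cohorts, and the lowest wild-type value was that of wild-type replicate 5 in Mith. With cohort as a term the log2 difference, R6/2 minus wild-type, was -0.82 ± 0.11 (SE), or 56.5% of the wild-type signal. It was -0.88 ± 0.13 in M.C and -0.74 ± 0.17 in Mith, or -0.95 ± 0.13 in Mith without wild-type replicate 5. In order, the group means were 11.40 ± 0.26 (SD, n = 4) for wild-type M.C, 11.19 ± 0.37 (SD, n = 3) for wild-type Mith, 10.52 ± 0.20 (SD, n = 4) for R6/2 M.C and 10.44 ± 0.21 (SD, n = 3) for R6/2 Mith. Within a genotype the cohorts differed by less than these SD. In bulk tissue fewer cells of a type and less RNA per cell cannot be told apart.

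The other Rasd2 probe set, 1427343_at, gave a like difference of -0.74 ± 0.13, with -0.75 in M.C and -0.72 in Mith (-0.93 without wild-type replicate 5). Its wild-type arrays ran from 10.69 to 11.02 in M.C and from 9.85 to 10.49 in Mith, and its R6/2 arrays from 9.55 to 10.38 and from 9.24 to 9.68. The genotypes did not overlap within a cohort, but the R6/2 arrays of M.C reached above the lowest wild-type array of Mith. Both probe sets moved together among arrays of 1 genotype and cohort (r = 0.77 over 14 arrays of the deviations from the group means, a description).

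Rasd1 was dim and gave other values than its paralog. Its probe set, 1423619_at, lay below the median of all probe sets on the array, at the 42.8th percentile of mean signal. In M.C it read from 6.63 to 6.85 in wild-type and from 6.67 to 7.01 in R6/2, and these ranges overlapped. In Mith it read 7.39, 6.97 and 7.13 in wild-type and 6.75, 6.39 and 6.75 in R6/2, with every wild-type array higher. The difference was 0.03 ± 0.09 in M.C, -0.53 ± 0.13 in Mith and -0.21 ± 0.10 over both. Without wild-type replicate 5 the Mith difference was -0.42 ± 0.13. The order of means was 7.16 ± 0.21 (SD, n = 3) in wild-type Mith, then 6.79 ± 0.15 (SD, n = 4) in R6/2 M.C, 6.77 ± 0.11 (SD, n = 4) in wild-type M.C and 6.63 ± 0.21 (SD, n = 3) in R6/2 Mith. The M.C genotypes lay within their SD of each other, and the last step was smaller than the R6/2 Mith SD but larger than the wild-type M.C SD.

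**Figure D1:**
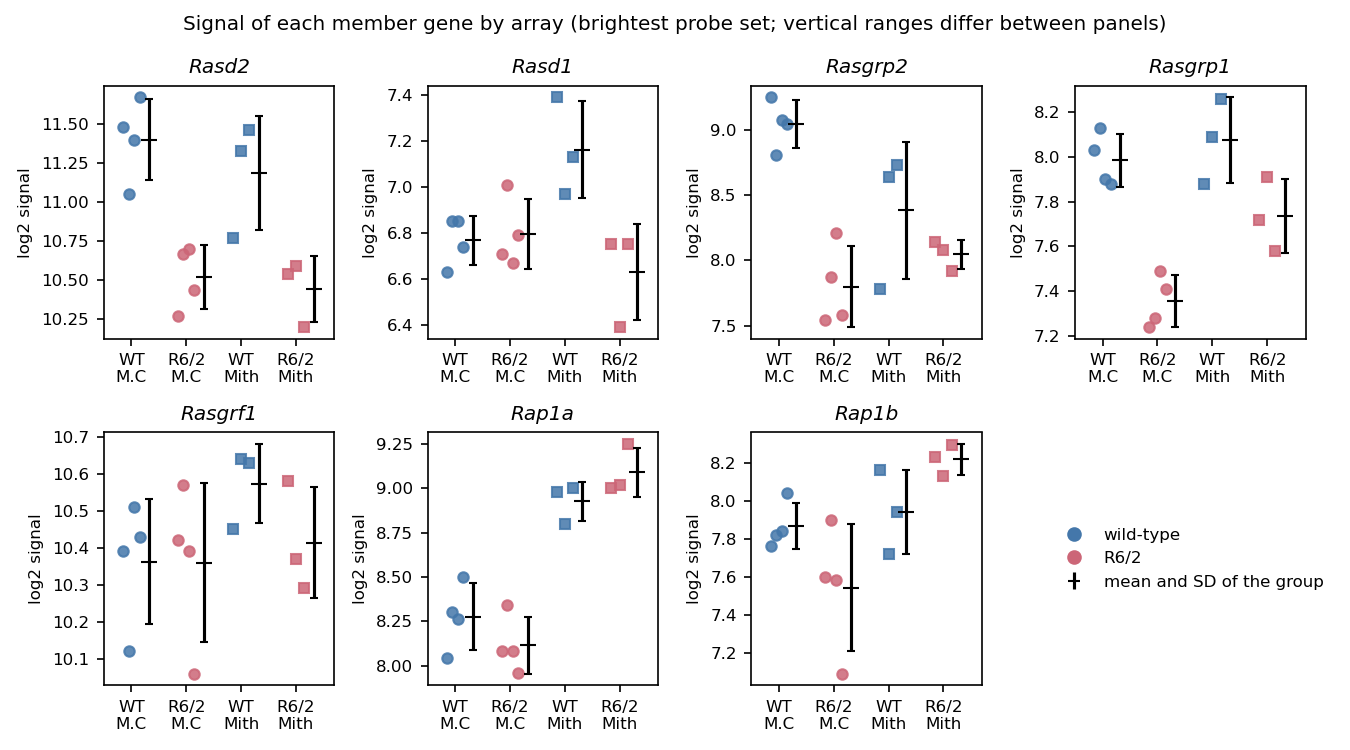
Log2 signal (vertical axis, range differs by panel) of the brightest probe set of each of the 7 genes on every array, by genotype and cohort (horizontal axis); black marks give the group mean and SD. Rasd2 shows no overlap between genotypes, Rasgrp2 overlaps in Mith through 1 low wild-type array at 7.78, and Rap1a separates the cohorts.

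Rasgrp2, the exchange factor for Rap, was lower in R6/2 on average in both cohorts, with the larger difference in M.C. Probe set 1417804_at read 9.25, 8.81, 9.08 and 9.05 in the wild-type arrays of M.C and 7.54, 7.87, 8.21 and 7.58 in R6/2. In Mith the wild-type arrays read 7.78, 8.64 and 8.73 and the R6/2 arrays 8.14, 8.08 and 7.92. The genotypes were apart in M.C, while in Mith wild-type replicate 5 lay below all 3 R6/2 arrays. The difference over both cohorts was -0.85 ± 0.17 (SE), 55.3% of wild-type, from -1.24 ± 0.14 (42.2%) in M.C and -0.34 ± 0.21 (79.2%) in Mith. Without wild-type replicate 5 the Mith difference was -0.64 ± 0.10 and that over both cohorts -1.02. The group means in order were 9.05 ± 0.18 (SD, n = 4) in wild-type M.C, 8.38 ± 0.52 (SD, n = 3) in wild-type Mith, 8.05 ± 0.12 (SD, n = 3) in R6/2 Mith and 7.80 ± 0.31 (SD, n = 4) in R6/2 M.C. The step between the Mith genotypes was smaller than the wild-type Mith SD, which holds the low array, and larger than the R6/2 Mith SD. The step between the R6/2 cohorts was smaller than the R6/2 M.C SD and larger than the R6/2 Mith SD.

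The other Rasgrp2 probe sets gave smaller differences of the same sign. They were -0.36 ± 0.10 for 1438933_x_at, whose suffix marks probes that may bind other transcripts, and -0.30 ± 0.08 for 1438932_at. In M.C they were at -0.55 and -0.43 with no overlap of the genotypes, and in Mith at -0.09 and -0.12 with overlap, or -0.11 and -0.21 without wild-type replicate 5. The 3 probe sets deviated together within groups, with r from 0.46 to 0.79 (14 arrays). Averaging them gave -0.50 ± 0.11 for the gene, so its size depends on the probe set.

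Rasgrp1, the exchange factor for Ras, was lower in R6/2 by all 3 of its probe sets. The brightest, 1431749_a_at, read 8.03, 8.13, 7.90 and 7.88 in wild-type M.C and 7.24, 7.28, 7.49 and 7.41 in R6/2 M.C. In Mith it read 7.88, 8.09 and 8.26 in wild-type and 7.72, 7.91 and 7.58 in R6/2. The genotypes were apart in M.C and overlapped in Mith by 1 array of each. The difference was -0.51 ± 0.08, 70.4% of wild-type, with -0.63 ± 0.08 in M.C and -0.34 ± 0.12 in Mith. Probe sets 1421176_at and 1450143_at gave -0.68 ± 0.12 and -0.69 ± 0.15, each at -0.92 in M.C and at -0.37 and -0.38 in Mith. Without wild-type replicate 5 the Mith differences of the 3 probe sets were -0.44, -0.51 and -0.45. The genotypes did not overlap for 1450143_at, at 7.21 to 7.53 in wild-type and 5.79 to 7.19 in R6/2. Means of 1431749_a_at ran in the order 8.07 ± 0.19 (SD, n = 3) in wild-type Mith, 7.99 ± 0.12 (SD, n = 4) in wild-type M.C, 7.74 ± 0.17 (SD, n = 3) in R6/2 Mith and 7.35 ± 0.12 (SD, n = 4) in R6/2 M.C. The wild-type cohorts lay within their SD of each other, and each later step was larger than the SD.

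Rasgrf1, the calcium and calmodulin dependent exchange factor, showed no common difference. Its brightest probe set, 1435614_s_at, ran from 10.12 to 10.64 in wild-type and from 10.06 to 10.58 in R6/2 over both cohorts, a difference of -0.07 ± 0.08. Probe set 1422600_at was at -0.28 ± 0.10 and 1424734_at, the dimmest, at 0.18 ± 0.05. The ranges of the first pair overlapped in both cohorts. In Mith they were at -0.16 and -0.28, or -0.22 and -0.44 without wild-type replicate 5, and 1424734_at went from 0.15 to 0.08. In M.C the R6/2 arrays of 1424734_at, from 6.97 to 7.20, all lay above the wild-type arrays, from 6.85 to 6.92. The first pair deviated together within groups (r = 0.81), while 1424734_at followed neither (r = -0.01 and 0.10, 14 arrays). Means of 1435614_s_at were 10.57 ± 0.11 (SD, n = 3) in wild-type Mith, 10.41 ± 0.15 (SD, n = 3) in R6/2 Mith, and 10.36 in both genotypes of M.C. The step from the first to the second was slightly larger than either SD, and the others were smaller.

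Rap1a and Rap1b are the GTPases that Rasgrp2 loads, and the brighter Rap1a probe set separated the cohorts but not the genotypes. Rap1a probe set 1424139_at read from 8.04 to 8.50 in wild-type M.C, from 7.96 to 8.34 in R6/2 M.C, from 8.80 to 9.0 in wild-type Mith and from 9.0 to 9.25 in R6/2 Mith. Genotypes overlapped or met in each cohort, and the cohorts did not overlap. Genotype differences of Rap1a were -0.02 ± 0.08 for this probe set and -0.07 ± 0.07 for 1448020_at. The Rap1b probe sets gave -0.07 ± 0.12 for 1435519_at, -0.33 ± 0.10 for 1435518_at and -0.14 ± 0.07 for 1455349_at. For 1435519_at the sign turned between the cohorts, from -0.32 ± 0.14 in M.C to 0.27 ± 0.11 in Mith, and R6/2 replicate 4 was the lowest array at 7.09. Without that array the M.C difference was -0.17, and without wild-type replicate 5 the Mith difference was 0.38. For 1435518_at the differences were -0.51 in M.C and -0.10 in Mith, or -0.44 without the first array and -0.19 without the second. Only for 1435518_at and M.C were the Rap1b genotypes apart, with wild-type from 7.39 to 7.81 and R6/2 from 6.97 to 7.33. Since Rap1a and Rap1b are so alike, binding of 1 transcript to the probes of the other was not tested here.

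**Figure D2:**
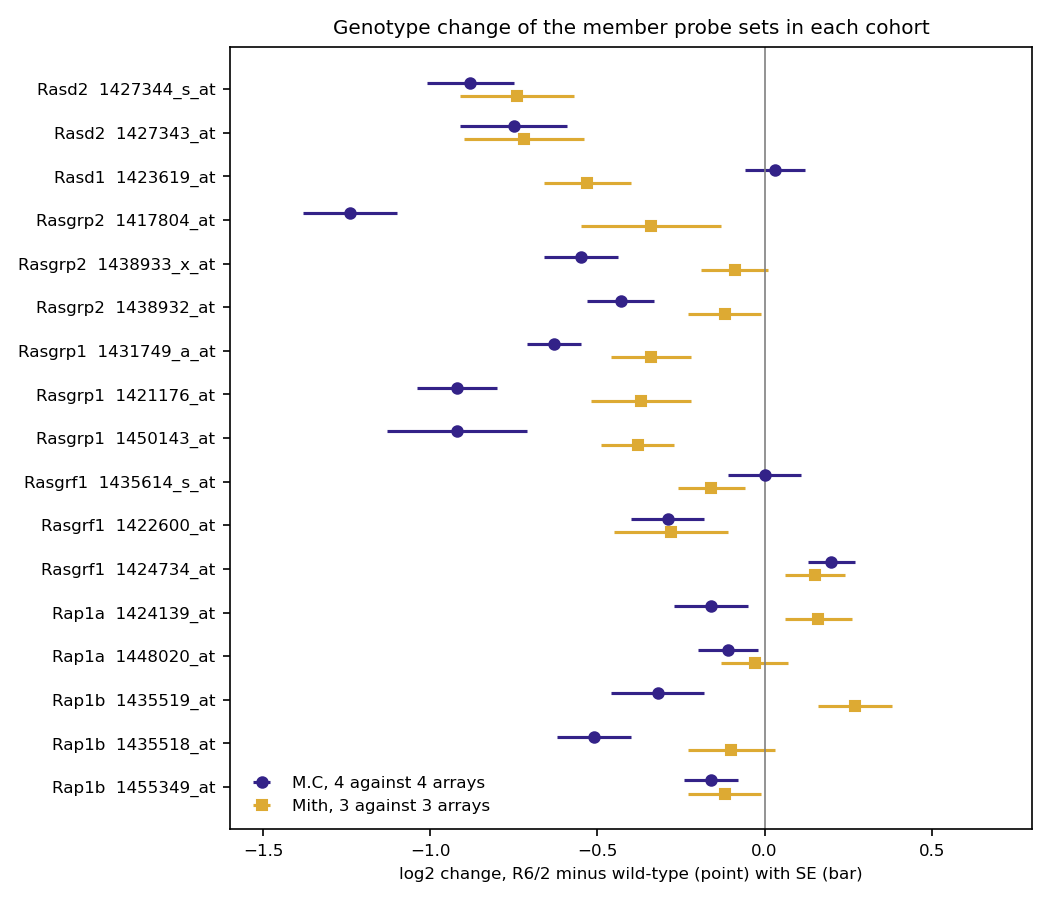
Log2 difference, R6/2 minus wild-type (horizontal axis), of each of the 17 probe sets (vertical axis), with circles for M.C and squares for Mith and bars for the SE. The Rasd2 pair agrees between cohorts at -0.88 and -0.74 and at -0.75 and -0.72, while Rasgrp2 1417804_at goes from -1.24 to -0.34.

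A call was an adjusted p under 0.05 in limma with Benjamini-Hochberg adjustment over all 22626 probe sets. In the genotype comparison 6 of the 17 probe sets were called, all lower in R6/2, where 2.55% of all probe sets were called, 2.19% lower and 0.362% higher. As these genes were chosen on that comparison, nothing is read from the difference between the shares. The called probe sets were both of Rasd2, 1417804_at of Rasgrp2 and all 3 of Rasgrp1. Of these, Rasgrp1 1450143_at missed the threshold in 5 of the 14 fits that left out an array, and the others in 0. Within M.C 8 of 17 were called, all lower, against 2.47% of all probe sets, or 2.31% lower. Within Mith 0 of 17 and 0 of 22626 (0%) were called by limma, and 7 of 17 and 2008 of 22626 were at an unadjusted p under 0.05. Wild-type arrays were all above R6/2 arrays over both cohorts for 2 of 17 probe sets (0.389% of all probe sets) and within each cohort for 3 (1.05%). In M.C alone this held for 9 (6.33%) and in Mith alone for 4 (6.34%). Leaving out 1 array at a time moved the difference of Rasd2 1427344_s_at from -0.91 to -0.77, of Rasgrp2 1417804_at from -1.02 to -0.77 and of Rasgrp1 1431749_a_at from -0.56 to -0.47. The number called in these fits ran from 5 to 9, where 280 to 879 of all 22626 probe sets were called. Without wild-type replicate 5 it was 9, where 879 of all were called.

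Whether the genotype difference itself depends on the cohort was tested with an interaction term. Of the 17 probe sets 0 were called by limma, as were 0 of all 22626 (0%). At an unadjusted p under 0.05 there were 6 of 17, and 9.78% of all probe sets. The largest was that of Rasgrp2 1417804_at, at -0.91 ± 0.27 (M.C difference minus Mith difference, adjusted p = 0.352). Next came Rap1b 1435519_at at -0.59 ± 0.20 (adjusted p = 0.381), and for Rasd1 it was 0.56 ± 0.16 (adjusted p = 0.340). Without wild-type replicate 5 Rap1b 1435519_at was the largest at -0.70 ± 0.21 (adjusted p = 0.276), followed by Rasgrp2 1417804_at at -0.61 ± 0.21 (adjusted p = 0.334), and Rasd1 was at 0.45 ± 0.16 (adjusted p = 0.344). For Rasd2 1427344_s_at the interaction was -0.14 ± 0.24 (adjusted p = 0.863). A difference between the cohorts was thus not shown at this number of arrays for any of these genes.

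The cohorts were also compared with genotype as a term, a contrast on which the genes were not chosen. In limma 9 of 17 probe sets were called, 8 lower and 1 higher in M.C, where 32.3% of all probe sets were called, 17.0% lower and 15.3% higher. The largest was Rap1a 1424139_at, at -0.81 ± 0.09 (M.C minus Mith, adjusted p = 5.5e-06), with means of 8.20 in M.C and 9.01 in Mith. All 8 arrays of M.C lay below all 6 of Mith. Its other probe set was lower by less, at -0.22 ± 0.07 (adjusted p = 0.0260), and Rap1b was lower at -0.37 ± 0.12 for 1435519_at (adjusted p = 0.0268) and -0.25 ± 0.07 for 1455349_at (adjusted p = 0.00765). The remaining Rap1b probe set, 1435518_at, was at -0.15 ± 0.10 and was not called (adjusted p = 0.274).

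Probe sets of the same gene did not always give the same difference between the cohorts. Rasd2 1427343_at was higher in M.C by 0.59 ± 0.13 (adjusted p = 0.00241), while 1427344_s_at was at 0.15 ± 0.12 (adjusted p = 0.355). Rasgrp2 1438932_at was lower in M.C, at -0.49 ± 0.09 (adjusted p = 4.20e-04), and 1438933_x_at at -0.35 ± 0.10 (adjusted p = 0.0109), while 1417804_at was at 0.21 ± 0.17 (adjusted p = 0.376). Rasgrf1 1422600_at was at -0.41 ± 0.11 (adjusted p = 0.00736) and its brighter partner at -0.13 ± 0.08 (adjusted p = 0.246). Rasgrp1 1431749_a_at was at -0.23 ± 0.08 (adjusted p = 0.0329). Its other probe sets, 1421176_at at -0.19 ± 0.12 and 1450143_at at -0.36 ± 0.15, were not called (adjusted p = 0.241 and 0.0834). Rasd1, at -0.12 ± 0.10, was not called (adjusted p = 0.420). The labels do not say what else differs between the cohorts. Markers of other cells and tissue differed too. All 9 oligodendrocyte markers measured were called lower in M.C (median -0.81), as were 5 of 8 thalamic markers (median -0.70), with 0 higher in either list. Of 11 markers of striatal projection neurons 1 was lower and 2 were higher, where 17.0% of all probe sets were lower and 15.3% higher. Their part in the cohort differences above was not tested.

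Deviations of the arrays from the mean of their own genotype and cohort gave a view of these genes from which the genotype difference is removed. Rasd2 and Rasgrp2 deviated together, with Pearson's r = 0.86 over 14 arrays (exact permutation p = 0.00183 within groups, two-sided, adjusted p = 0.0339 over the 21 pairs of the 7 genes) and Spearman's rho = 0.81 (exact p = 0.00960, adjusted p = 0.101). Wild-type replicate 5 was the lowest array for both genes, at -0.42 for Rasd2 and -0.60 for Rasgrp2. Leaving out the arrays farthest from the median of Rasd2 gave r = 0.76. Within M.C r was 0.75 (8 arrays, exact permutation p = 0.0312), and within Mith 0.95 (6 arrays, exact permutation p = 0.0556).

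Rap1a and Rap1b were the other pair that passed, with r = 0.76 (exact permutation p = 0.00323, adjusted p = 0.0339) and rho = 0.81 (exact p = 0.00545, adjusted p = 0.101). Here r was 0.63 without the arrays farthest from the Rap1a median, 0.79 within M.C (8 arrays, exact permutation p = 0.0191) and 0.67 within Mith (6 arrays, exact permutation p = 0.222). After quantile normalization neither pair passed, with r = 0.79 (exact permutation, adjusted p = 0.114) for Rasd2 and Rasgrp2 and r = 0.71 (adjusted p = 0.0790) for Rap1a and Rap1b. The remaining 19 pairs did not pass, among them Rasd2 with Rasd1 (r = -0.45, exact permutation, adjusted p = 0.310), Rasd2 with Rasgrp1 (r = 0.41, adjusted p = 0.376) and Rasgrp2 with Rasgrp1 (r = 0.56, adjusted p = 0.275).

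**Figure D3:**
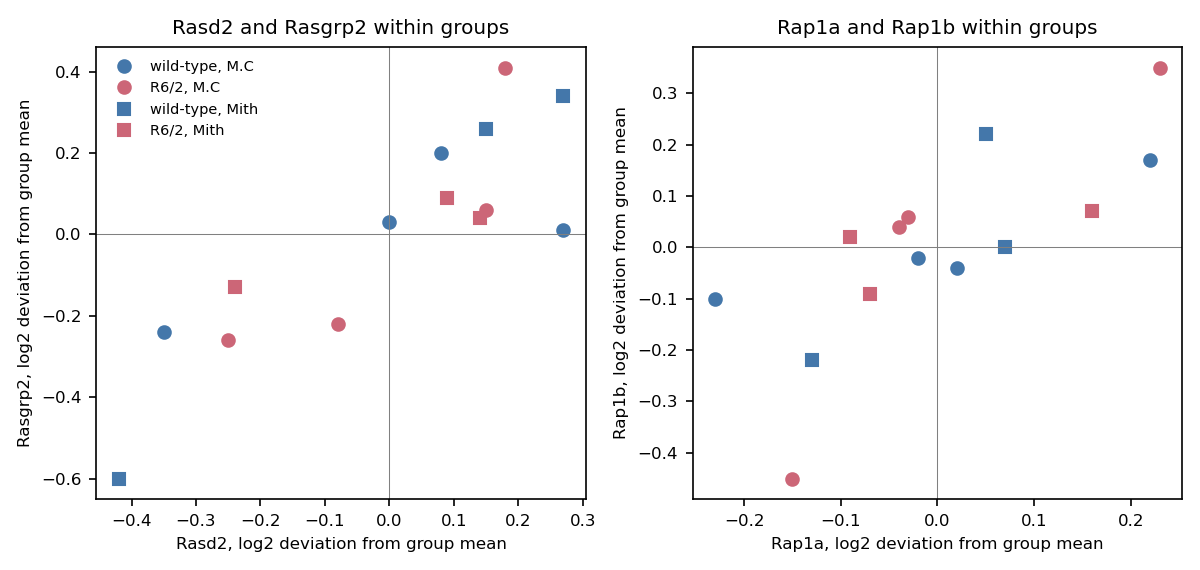
Deviation of each of 14 arrays from the mean of its genotype and cohort (log2), for Rasgrp2 against Rasd2 (left) and Rap1b against Rap1a (right), coloured by genotype, with circles for M.C and squares for Mith. Points rise together in both panels (r = 0.86 and r = 0.76), and wild-type replicate 5 lies lowest on the left at -0.42 and -0.60.

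The genes whose deviations were most like those of Rasd2 over the 14 arrays, of 20051 named probe sets ranked, included Kctd17 (r = 0.94), the latrophilin gene Adgrl1 (0.92), the magnesium transporter gene Slc41a1, the glucose transporter gene Slc2a1 and the T-type calcium channel gene Cacna1h (each 0.91). Fbxo21, Camkv and Mtmr7 followed at 0.90. For Rasgrp2 they were Sdhc (0.95), Cacna1h (0.94), Kctd17 and Nisch (0.93), Actn1, Pde4dip and the striatal regulator of G protein signalling Rgs9 (0.91) and Rin1, a Ras effector (0.90). Kctd17 and Cacna1h were on both lists. These are the highest of many values from the same 14 arrays, which also differed in RNA quality, so they are a description.

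The other genes had different neighbours. Rasgrp1 was most like Foxo1, Dclk1, Cyp2d10, Agfg2 and Foxk2 (r from 0.89 to 0.92), and Rasd1 most like Katna1, Tspan6, Gstt2, Utp3 and Bckdha (0.88 to 0.92). Rasgrf1 was most like Immt, Scamp1, Rnf187, Sema4a and Atf2 (0.93 to 0.95). Rap1a was most like Mis12, the glucocorticoid receptor gene Nr3c1, Rdx, Errfi1 and Pcnp (0.88 to 0.90). Rap1b was most like Tra2b, Ociad1, Purg, Rars and Armc1 (0.95 to 0.97).

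Other genes of Ras and Rap signalling were listed by role in 6 lists, and a further list held glucocorticoid-responsive genes. Over these 7 lists, with 112 of 152 genes measured and the 7 members left out, 3 genes (2.68%) fell in R6/2, 1 (0.893%) rose and 108 did not pass in limma. Among all 12393 genes, each by 1 probe set, 2.07% were lower and 0.468% higher, so the shares in the lists were near those of all genes. The median change of the listed genes was -0.041 log2 and that of all genes 0.014. Without wild-type replicate 5 the lower calls came to 8, while calls in either direction over all probe sets rose from 578 to 879.

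Among GTPase activating proteins, which turn Ras and Rap off, 1 of 15 fell. This was Rap1gap, which turns off Rap1, from 10.71 ± 0.25 (SD, n = 7) to 10.23 ± 0.21 (SD, n = 7), a change of -0.47 ± 0.09 to 72.2% of wild-type (limma adjusted p = 0.00830). M.C alone gave -0.57 and Mith alone -0.34. Of 21 effectors and MAP kinase cascade genes 1 fell. This was Rgs14, a G protein regulator that binds Ras and Rap, from 9.08 ± 0.23 (SD, n = 7) to 8.75 ± 0.14 (SD, n = 7), a change of -0.33 ± 0.06 (adjusted p = 0.00475). The M.C value was -0.41 and the Mith value -0.22. Both genes were called in all 14 fits with 1 array left out. Rin1 had the largest difference of that list, -0.53 ± 0.14, and did not pass (adjusted p = 0.0621).

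Of 23 further Ras and Rap family GTPases 1 rose and 0 fell. It was Rhebl1, a relative of the mTOR activator Rheb, at 0.26 ± 0.07 (adjusted p = 0.0414), a dim probe set that missed the threshold in 11 of the 14 fits that left out an array. Rasl10a, another GTPase, was at -0.32 ± 0.09 and did not pass (adjusted p = 0.0679). None of 13 other exchange factors, 14 known partners of Rasd1 and Rasd2 and 12 prenylation and palmitoylation enzymes passed in limma, and at an unadjusted p under 0.05 these 39 genes held 8 lower and 1 higher. Their largest differences were -0.22 for the Ral exchange factor gene Ralgds, -0.22 for the G protein subunit gene Gnao1 and -0.25 for the depalmitoylase gene Abhd17a.

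Glucocorticoid-responsive genes were listed because dexamethasone induces Rasd1 and all animals had been injected. Of 14 measured 1 fell, the clock gene Per1, at -0.24 ± 0.06 (adjusted p = 0.0324), and it missed the threshold in 9 of the 14 fits that left out an array. Sgk1 had the largest difference, -0.34 ± 0.10, and did not pass (adjusted p = 0.0753). The list's median was -0.06, with -0.07 in M.C and -0.08 in Mith, while Rasd1 itself was at 0.03 and -0.53.

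**Figure D4:**
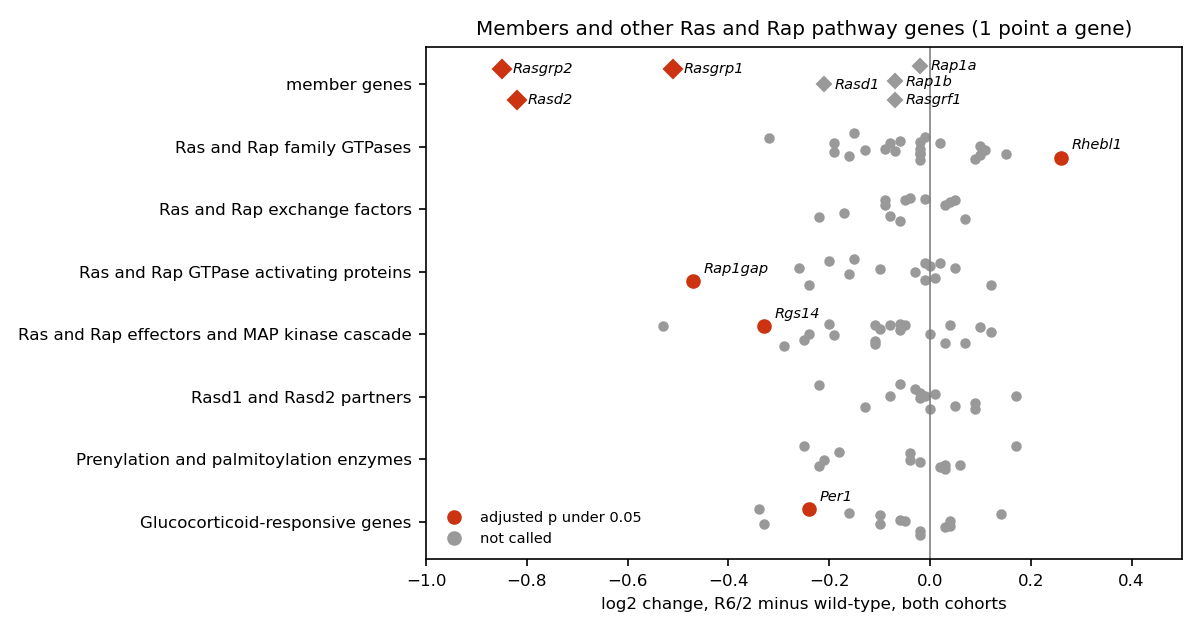
Log2 difference, R6/2 minus wild-type over both cohorts (horizontal axis), for the 7 members (diamonds, brightest probe set) and for each gene of the pathway lists (circles, spread vertically for sight only); red marks an adjusted p under 0.05. Rap1gap at -0.47 and Rgs14 at -0.33 are the called pathway genes nearest to the members Rasgrp1 at -0.51, Rasd2 at -0.82 and Rasgrp2 at -0.85.

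Markers of cell types and tissues were looked at beside these genes. Over all 22626 probe sets 578 were called by genotype, and 56 with the Actb covariate. Markers of striatal projection neurons were well expressed, all 11 of those measured lying above the median of all probe sets, and 8 of the 11 fell, or 1 with the Actb covariate described last. Their mean lay between 9.71 and 10.13 on R6/2 arrays and between 9.99 and 10.77 on wild-type arrays, lowest among wild-type on replicate 5 as for Rasd2 and Rasgrp2. Within groups that mean had r = 0.66 with Rasd2, 0.78 with Rasgrp2, 0.74 with Rasgrp1 and -0.80 with Rasd1 (exact permutation, adjusted p = 0.161, 0.161, 0.161 and 0.141 over 21 relations), so none passed. Its r was -0.52 with Rap1a and -0.63 with Rap1b (exact permutation, adjusted p = 0.161 and 0.185), and these did not pass either. Oligodendrocyte markers also moved with genotype, with 6 of 9 called lower (2 with the Actb covariate), a median change of -0.35 and means from 9.08 to 10.05 in R6/2 and from 9.39 to 10.35 in wild-type. Among them were the myelin lipid enzyme gene Ugt8a at -0.79 ± 0.11 (limma adjusted p = 0.00148) and the myelin junction gene Cldn11 at -0.68 ± 0.12 (adjusted p = 0.00492). Their part in the differences above was not tested. Cortical markers, 1 of 8 lower, had a mean from 7.16 to 7.41 in R6/2 and from 7.18 to 7.44 in wild-type, and with it as a covariate Rasd2 was at -0.82 and Rasgrp2 at -0.84, with 7 of 17 probe sets called where 2.45% of all were. The lower marker was Camkv, at -0.47 ± 0.11 (limma adjusted p = 0.0383). It was also among the genes most like Rasd2 within groups (r = 0.90), so the covariate holds a gene that moved with Rasd2. Of the 8 cortical markers only 5 lay above the median of all probe sets. Tbr1 at 3.65 and Neurod6 at 3.89 were near the lowest log2 value of 2.96, which limits what their mean can show. Platelet markers, relevant to Rasgrp2, had 0 of 7 called and 0 at an unadjusted p under 0.05, with means from 6.56 to 6.77 and from 6.55 to 6.66, and 4 of the 7 lay above that median. T cell markers, relevant to Rasgrp1, had 0 of 6 called and 1 lower at an unadjusted p under 0.05, with means from 6.60 to 6.79 and from 6.65 to 6.89, and 3 of the 6 lay above it.

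RNA quality also differed. The Actb 3′ minus 5′ difference, which grows as RNA degrades, averaged 0.608 ± 0.181 (SD, n = 7) over R6/2 arrays and 0.373 ± 0.143 (SD, n = 7) over wild-type arrays (by exact permutation within cohorts, p = 0.0186, adjusted p = 0.0310 over 5 measures). With it as a covariate Rasd2 1427344_s_at was at -0.78 ± 0.15 and 1427343_at at -0.57 ± 0.16. With this covariate 1 of the 17 probe sets was called, where 0.248% of all were. Rasgrp2 1417804_at was at -0.75 ± 0.22 and Rasgrp1 1431749_a_at at -0.37 ± 0.09, with 1450143_at going from -0.69 to -0.30. Rap1gap was at -0.52 ± 0.11 (limma adjusted p = 0.0743) and Rgs14 at -0.31 ± 0.07 (adjusted p = 0.0936). Wild-type replicate 5 had the highest Actb difference of the wild-type arrays, 0.613, with the others from 0.199 to 0.476. Its Gapdh 3′ minus 5′ difference, at -0.069, was the lowest of them. Like that of Actb, the Gapdh difference was larger on average in R6/2, at 0.217 against 0.0262. Its arrays overlapped, running from -0.022 to 0.570 for R6/2 and from -0.069 to 0.129 for wild-type. The permutation test used for Actb gave p = 0.0143 for Gapdh (adjusted p = 0.0310). Within groups the Actb difference had r = 0.74 with Rap1b, 0.40 with Rap1a, -0.64 with Rasgrp1 and -0.12 with Rasd2. None passed (exact permutation, adjusted p = 0.173, 0.348, 0.161 and 0.865). Beyond these values the part of RNA quality in the differences and in the correlated pairs was not tested.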

How the data were processed

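Per the labels, total RNA of striatum was measured by array. Signals are log2 values as the authors deposited them, a unit read from their range (2.96 to 14.5). The summary and normalization methods were not given in the sources used here. Array medians spanned 0.108 log2 and were brought to 1 value, and 64 control probe sets were set aside. Gene symbols came from the platform's annotation, updated by gene ID. Genotype, cohort and their interaction were fitted with limma 3.58.1 (R 4.3.3), two-sided, adjusted over 22626 probe sets. Each gene was represented by its brightest probe set, passing over _x_at where another existed. Correlations used exact permutation within the 4 groups (20736 arrangements). The fit was tested on simulated data. Named genes are all members, called genes of each list (up to 5) and its largest change, and the 5 genes (8 for Rasd2 and Rasgrp2) most like each member. Members and lists were chosen with earlier results of these data known. Further marker lists covered oligodendrocytes (6 of 9 genes lower) and, with no call, thalamus, astrocytes, microglia and red cells. The lack of calls does not show equal tissue content. The 8 thalamic markers had a median genotype difference of 0.01 in M.C and -0.61 in Mith, and their part in the differences above was not tested. The 6 lists with no call, with platelets and T cells, held 38 genes, and at an unadjusted p under 0.05 these held 10 lower and 1 higher. Alternatives covered the cohort term, quantile normalization, the deposited scale, dim probe sets, variance models, array weights, covariates, single cohorts, probe set averaging, the threshold and each array left out. Leaving out wild-type replicate 5 within Mith, and with R6/2 replicate 4, was added after seeing the data.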

Additional observations from a re-analysis of the deposited data

Results flagged for a closer look

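For 3 of 68 combinations of probe set and group, 1 array lay far from the others of its group; chance at 1 in 20 would give 3.4. Rasgrp2 1417804_at read 7.78 on wild-type replicate 5, and the nearest of the 7 wild-type arrays read 8.64. Rasgrp2 1438933_x_at read 7.84 on wild-type replicate 2 among the same 7 arrays, with the nearest at 8.14. Rasgrp1 1450143_at read 7.21 on wild-type replicate 3, and the nearest of the 4 wild-type arrays of M.C read 7.38.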

How the results depend on the processing

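The difference of Rasd2 1427344_s_at stayed between -0.95 and -0.74 under every alternative run, and from -0.91 to -0.77 with 1 array left out. That of Rasd2 1427343_at was -0.74, and -0.57 with the Actb covariate, -0.66 with quantile normalization and -0.93 in Mith without wild-type replicate 5. Rasgrp2 1417804_at went from -1.02 to -0.77 with 1 array left out, was -1.24 in M.C alone and -0.34 in Mith alone, and -0.50 as the mean of its probe sets. Called probe sets of the 7 genes numbered 6, and 3 without the cohort term, 1 with the Actb covariate, 0 in Mith alone, 1 in Mith without wild-type replicate 5, and 5 to 9 with 1 array left out. Over all probe sets 578 were called, and 100 without the cohort term, 1333 with array weights, 56 with the Actb covariate, 0 in Mith alone (13 without wild-type replicate 5), 131 at a threshold of 0.01, 1353 without R6/2 replicate 4 and wild-type replicate 5, and 280 to 879 with 1 array left out. Lower genes of the 7 lists went from 3 to 0 without the cohort term, with the Actb covariate and in Mith with or without wild-type replicate 5, to 6 in M.C, to 8 with array weights or without both arrays named above, and to 2 to 8 with 1 array left out. The single higher gene of the lists went to 2 with quantile normalization or array weights, to 0 without the cohort term, with the Actb covariate, in either cohort alone, among brighter probe sets (Rhebl1 is dim) or at 0.01, and to 0 or 1 with 1 array left out. Called by cohort were 9 probe sets of the 7 genes, where 32.3% of all probe sets were called. This number went to 5 at a threshold of 0.01 and to 6 to 10 with 1 array left out. The share of all probe sets called by cohort is not given for those fits, so nothing is read from their counts. Interaction calls stayed at 0. Correlated pairs went from 2 to 0 with quantile normalization. The cause of these changes was not tested. Apart from 1427344_s_at and 1417804_at, values of single probe sets of the 7 genes moved by less than the SD between replicates in 383 cases and by more in 19. No paired analysis was possible because the labels number the arrays of a cohort without repeats, and the replicate numbers used here only follow the order of the records. Signal over background was not analysed here.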
